A study of Mus musculus with 13 samples.

Results

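Pyrimidine and deoxynucleotide synthesis was followed through 9 genes, Cad, Dhodh, Umps, Ctps, Rrm1, Rrm2, Tyms, Tk1 and Dut, which were chosen by name as the enzymes leading from the pyrimidine ring to CTP, to deoxynucleotides and to thymidylate. All 9 were found among the 53465 genes of a table of TPM (transcript abundance per gene length, scaled to sum to 1000000 in each library), and all 9 passed the filter on low values. The table holds bulk RNA of 3 WT ovaries and 10 MP tumors. The WT ovaries came from non-treated wild-type C57BL/6 mice, with the same age of 8 to 12 wk in their labels as the tumor mice. The MP tumors arose in wild-type C57BL/6 females whose ovary was electroporated at 8 to 12 wk of age with 3 components, a vector for Cas9 and an sgRNA against Trp53, a transposon carrying MYC, and the Sleeping Beauty transposase, and RNA was taken from whole tumors at end point. The labels name no cell-type promoter for the vectors, and a whole tumor also holds host cells that were not edited. The study describes its tumors as oligoclonal. A normal ovary is a mixture of steroid-producing, granulosa, germ and stromal cells, so a difference between the groups is also one between tissues. In bulk RNA, fewer cells of a type and less RNA per cell cannot be told apart. The labels number the samples of each group but do not say that each came from its own animal, so P values measure the spread between these libraries.

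Cells make pyrimidines from glutamine, bicarbonate and aspartate. Cad carries out the opening steps, Dhodh in the inner mitochondrial membrane oxidizes dihydroorotate to orotate, Umps turns orotate into UMP, and Ctps makes CTP from UTP. Ribonucleotide reductase, built from the large subunit Rrm1 and the small subunit Rrm2, then reduces ribonucleotides to deoxyribonucleotides. Dut hydrolyzes dUTP to dUMP, Tyms methylates dUMP to dTMP, and Tk1 phosphorylates thymidine in the cytosol. Dividing cells draw on these enzymes for DNA synthesis, Rrm2 and Tk1 are typically made in S phase, and Cad is a classical target of MYC.

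In MP tumors 4 of the 9 genes exceeded WT ovaries (Dhodh, Tyms, Tk1 and Dut) and 0 fell below them, at an adjusted P under 0.05 from limma with Benjamini-Hochberg adjustment over the 17277 genes tested. Over all tested genes 2896 were called, which is 16.8%. Of the tested genes 2.51% (433) were higher and 14.3% (2463) were lower. The median log2 fold change was 1.34 over the 9 genes and -0.58 over all tested genes, and single fold changes stand on top of that general shift. Relative to it, Ctps lay 0.67 above the median gene and Tk1 2.69 above it, with the remaining 7 genes in between. The shift depended on the scaling, being -0.02 with median-of-ratios scaling, 0.08 with quantile normalization and 0.04 after each library's trend with gene length was removed. Each of these procedures sets the libraries to a common level, so a median near 0 is largely built in. Removing the length trend takes out a library's general level together with its dependence on length. Under these procedures the calls split into 1292 higher and 1887 lower genes, 1904 and 2091, and 1789 and 1779. Of the 9 genes, 6, 5 and 7 were then higher and 0 lower. Without WT ovary 1, 2 or 3 the number higher was 2, 2 and 1, and among the WT ovaries and MP tumors 1 to 3 with the length trend removed it was 9, where 27.2% of all tested genes were higher. All 9 genes lay above the median gene in each of the 27 fits that were run.

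Sequencing depth and a few libraries bear on every value. The table's steps gave whole reads for 100% of values, between 31445004 and 64013840 reads per WT ovary and between 3892690 and 19906507 per MP tumor, and the fewest reads behind any value of the 9 genes were 187, for Dhodh in MP tumor 5. Trp53 RNA, the check of the targeted gene, was between 4.30 and 26.0 TPM in MP tumors 1 to 9 against 80.7 to 85.4 TPM in WT ovaries, but 187 TPM in the library labelled MP tumor 10. Whether Trp53 was edited in that library cannot be read from its RNA level and was not tested. In MP tumor 2, 10 genes took 55.1% of all TPM, against at most 20.6% in the other tumors. Leaving out both libraries changed no call among the 9 genes. Library names carry an IGO number. The WT ovaries share theirs with MP tumors 1 to 3, MP tumors 4 to 6 have another, and MP tumors 7 to 10 have the last. Condition and number can be told apart only within the number of the WT ovaries, where 69.2% of 15239 tested genes were called, 6.84% higher and 62.4% lower, and 5 of the 9 genes were higher and 0 lower. In MP tumors 1 to 3 long genes were also low as a class, with a correlation across genes between log2 length and log2 TPM relative to the WT mean of -0.36, -0.40 and -0.35, and this was between -0.28 (MP tumor 4) and -0.04 (MP tumor 5) in MP tumors 4 to 10.

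**Figure D1:**
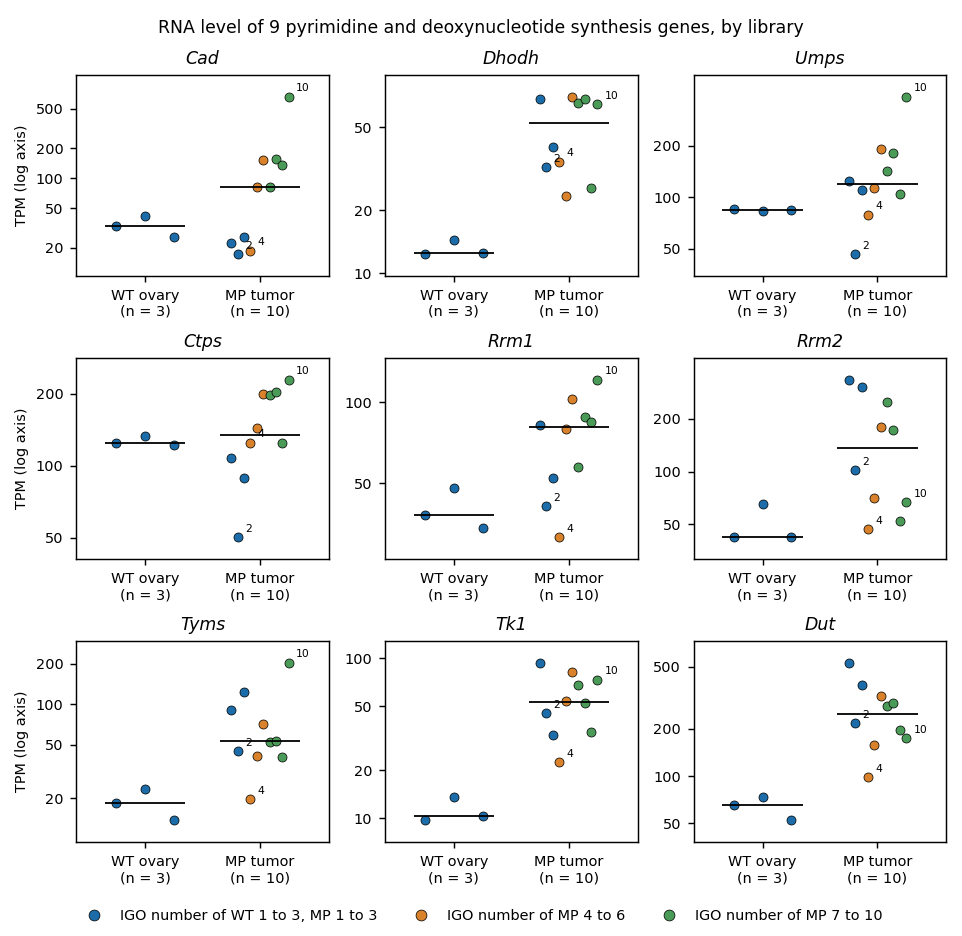
TPM (log axis) of the 9 genes in 3 WT ovaries and 10 MP tumors, with 1 point per library, a line at each group's median and color for the IGO number in the library name. MP tumors 2, 4 and 10 are numbered. For Dhodh, Tk1 and Dut every tumor is above every ovary, as for 3.02% of all tested genes. Cad runs from 17.3 to 663 TPM among the tumors.

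Dhodh was the only gene of the ring-building and CTP-forming group to pass the test. It lies on chromosome 8 from 109591343 to 109608673 (GRCm38, minus strand) and was at 12.4, 14.5 and 12.5 TPM in WT ovaries 1, 2 and 3. The MP tumors ran from 23.4 TPM in MP tumor 5 through a median of 52.2 to 70.0 TPM in MP tumor 6. Every tumor was above every ovary, as for 3.02% of all tested genes. The log2 fold change was 1.72 (standard error, SE, 0.41, limma adjusted P = 0.00960), and it was 1.69 (limma adjusted P = 0.00287) when MP tumors 1 to 3 alone were set against the WT ovaries. The call was lost, at adjusted P values up to 0.0771, when any of the WT ovaries was left out.

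Cad spread more among the tumors than any other of the 9 genes. The gene lies on chromosome 5 from 31054780 to 31078479 (plus strand). WT ovaries had 32.9, 41.4 and 25.6 TPM, while MP tumors ran from 17.3 TPM in MP tumor 2 through a median of 81.3 to 663 TPM in the library labelled MP tumor 10, a 38.4-fold range. MP tumors 1, 2 and 4 were below every ovary, MP tumor 3 was within the ovaries' range and the other 6 were above it. The log2 fold change of 1.08 (SE 0.89, limma adjusted P = 0.403) was smaller than the spread between tumors. Its direction turned within the IGO number of the WT ovaries, to -0.58 (limma adjusted P = 0.143), and turned back to 1.35 (limma adjusted P = 0.00203) when the trend with gene length was also removed from these 6 libraries, a setting added after seeing the data. That removal also takes out the general shift. Relative to the median gene, Cad lay 0.85 above it before the removal and 1.36 above it after. Tumor medians were 22.2 TPM over MP tumors 1 to 3, 80.9 TPM over 4 to 6 and 146 TPM over 7 to 10.

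Umps and Ctps had the smallest differences of the 9 genes, and the exons of Umps overlap Gm15829 on the other strand by 213 bases. Umps, on chromosome 16 from 33954782 to 33967038 (minus strand), had 85.2, 83.2 and 84.4 TPM in the ovaries, the tightest of the 9 genes there, and ran in tumors from 46.6 TPM in MP tumor 2 through a median of 119 to 387 TPM in the library labelled MP tumor 10. Of the tumors, 8 were above and 2 below every ovary, and the log2 fold change was 0.59 (SE 0.46, limma adjusted P = 0.373). Within the IGO number of the WT ovaries it was 0.04 (limma adjusted P = 0.943). It passed at 1.31 with median-of-ratios scaling (limma adjusted P = 0.0296), at 1.23 after removal of the length trend (limma adjusted P = 0.0298), and at 1.35 with the trend removed within that number (limma adjusted P = 0.00277). Ctps, on chromosome 4 from 120539868 to 120570276 (minus strand), had 124, 133 and 121 TPM in ovaries and ran from 50.2 TPM in MP tumor 2 through 134 to 229 TPM in the library labelled MP tumor 10. The tumors lay on both sides of the ovaries, 5 above and 3 below all of them. Its log2 fold change was 0.10 (SE 0.40, 95% interval -0.69 to 0.88, limma adjusted P = 0.880), and it turned to -0.68 (limma adjusted P = 0.147) within the IGO number of the WT ovaries and back to 0.59 (limma adjusted P = 0.0363) with the length trend also removed. That removal also takes out the general shift. Relative to the median gene within that number, Ctps lay 0.76 above it before the removal and 0.59 above it after. Umps lay 1.48 above it before and 1.35 above it after.

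Each subunit of ribonucleotide reductase was above every ovary in 8 of 10 tumors, but neither passed the test. Rrm1, on chromosome 7 from 102441695 to 102469771 (plus strand), was at 38.0, 47.7 and 34.1 TPM in ovaries and ran from 31.5 TPM in MP tumor 4 through a median of 80.7 to 121 TPM in the library labelled MP tumor 10. For Rrm1, 8 tumors were above every ovary and MP tumor 4 was below all 3, with a log2 fold change of 0.78 (SE 0.39, limma adjusted P = 0.173). Rrm2, on chromosome 12 from 24708241 to 24714146 (plus strand), was at 42.2, 64.8 and 42.4 TPM in ovaries and ran from 46.7 TPM in MP tumor 4 through 137 to 336 TPM in MP tumor 1. For Rrm2, 8 tumors were above every ovary and 2 overlapped with them, with a log2 fold change of 1.34 (SE 0.59, limma adjusted P = 0.127). Within the IGO number of the WT ovaries Rrm1 was at 0.49 (limma adjusted P = 0.261) and Rrm2 at 2.14 (limma adjusted P = 0.00584), where the tumors had 336, 102 and 306 TPM of Rrm2. Rrm1 passed at 1.49 with median-of-ratios scaling (limma adjusted P = 0.0122), 1.34 with quantile normalization, 1.81 after removal of the length trend and 1.15 with limma-voom on recovered reads, and Rrm2 passed in the last of these, at 1.83 (limma adjusted P = 0.0378).

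The subunits differed in how they varied. The Rrm2 to Rrm1 TPM ratio was 1.11, 1.36 and 1.24 in the ovaries, whereas in tumors it spread from 0.552 in the library labelled MP tumor 10 to 5.85 in MP tumor 3. Among tumors, 7 had a ratio above and 3 below every ovary, and the mean log2 ratio, taken on TPM + 1 as in all tests of ratios here, differed by 0.56 (2-sided exact permutation test, P = 0.441 after adjustment over 7 ratios). The height of this ratio depends on length, since the table divides Rrm1 by 11012 bases of merged exons while its coding transcript has 3997. The comparison between groups also changed when each library's trend with length was removed, to a log2 difference of 0.08 (exact permutation test, adjusted P = 0.864) with 5 tumors above and 4 below every ovary. Within the IGO number of the WT ovaries it was 1.65, with all 3 tumors above. The sequences before the start of both genes are shown because the subunits act in 1 enzyme while their ratio spread so widely. They are from RefSeq (GRCm38.p6), and capitals mark matches to CCAAT or to an E2F core, TTNNCGC with C or G at each N, searched on both strands, and no matches overlap. Rrm1 is shown for chr7:102441445-102441694 (plus strand) and Rrm2 for chr12:24708004-24708240 (plus strand).
Rrm1: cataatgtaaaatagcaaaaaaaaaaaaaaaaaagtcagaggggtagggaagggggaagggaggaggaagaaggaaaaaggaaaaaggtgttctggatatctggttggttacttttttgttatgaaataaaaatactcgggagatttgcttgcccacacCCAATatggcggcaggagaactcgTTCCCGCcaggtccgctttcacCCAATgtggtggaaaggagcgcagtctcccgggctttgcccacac
Rrm2: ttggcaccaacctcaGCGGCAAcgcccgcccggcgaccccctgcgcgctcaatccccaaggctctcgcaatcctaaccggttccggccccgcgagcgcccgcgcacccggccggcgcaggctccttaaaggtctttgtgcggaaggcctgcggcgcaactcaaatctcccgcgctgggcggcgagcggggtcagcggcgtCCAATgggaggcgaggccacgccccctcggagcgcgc
In windows from 250 bases before to 50 after the start, Rrm1 held CCAAT 91 and 45 bases before it and TTCCCGC 67 bases before it, and Rrm2 held CCAAT 50 bases and GCGGCAA, the reverse complement of TTGCCGC, 235 bases before it. Of 32851 such windows over all genes, 37.4% held CCAAT and 9.57% an E2F core, and the matches are a description of letters only.

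Rrm2b, the p53-inducible small subunit that can replace Rrm2, showed the reverse arrangement of levels. It was at 12.6, 11.4 and 11.7 TPM in WT ovaries and between 2.64 and 6.46 TPM in MP tumors 1 to 9, below every ovary. Rrm2b stood at 21.3 TPM in the library labelled MP tumor 10, higher than in any ovary, and this is also the library with 187 TPM of Trp53. The part of Trp53 in this value was not tested. Over all tumors the Rrm2b log2 fold change was -0.96 (SE 0.46, limma adjusted P = 0.164). The Rrm2 to Rrm2b TPM ratio was 3.34, 5.66 and 3.63 in ovaries, between 7.23 and 66.8 in MP tumors 1 to 9, and 3.14 in the library labelled MP tumor 10. The mean log2 ratio of TPM + 1 was higher in tumors by 2.30 (2-sided exact permutation test, P = 0.0408 after adjustment over 7 ratios), with 9 of 10 tumors above every ovary. Without MP tumors 2 and 10 the difference was 2.56 (2-sided exact permutation test, adjusted P = 0.0141). Of the 13 fits without 1 library, those without MP tumor 5, 9 or 10 passed and the other 10 did not, at adjusted P values up to 0.106 (exact permutation test).

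All 3 thymidylate enzymes were higher in tumors, and Dut had the highest mean TPM of the 9 genes in the tumors. Dut, on chromosome 2 from 125247190 to 125258608 (plus strand), had 65.0, 73.4 and 52.2 TPM in ovaries, and tumors ran from 98.6 TPM in MP tumor 4 through a median of 249 to 531 TPM in MP tumor 1. Every tumor was above every ovary, as for 3.02% of all tested genes, with a log2 fold change of 1.91 (SE 0.41, limma adjusted P = 0.00566). Within the IGO number of the WT ovaries it was 2.47 (limma adjusted P = 0.000915). Leaving out WT ovary 3 ended the call, at a log2 fold change of 1.78 (SE 0.51, limma adjusted P = 0.0610), and the other 12 such fits kept it.

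Tyms, on chromosome 5 from 30058202 to 30073617 (minus strand), was at 18.3, 23.4 and 13.7 TPM in ovaries and ran from 19.7 TPM in MP tumor 4 through 52.7 to 203 TPM in the library labelled MP tumor 10. All tumors but MP tumor 4 were above every ovary. The log2 fold change was 1.69 (SE 0.54, limma adjusted P = 0.0431). This call is close to the threshold and was kept in 5 of the 13 fits that left out 1 library. It was lost without WT ovary 1, 2 or 3 or without MP tumor 1, 3, 6, 7 or 8, at limma adjusted P values up to 0.204. Reads of the pseudogene Tyms-ps could have been split with Tyms in the counting, so its value is less certain than those of its neighbors in the pathway.

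Tk1 had the largest log2 fold change of the 9 genes over all 13 libraries, although Dut, at 2.47, and Rrm2 exceeded it within the IGO number of the WT ovaries. The gene, on chromosome 11 from 117815526 to 117826092 (minus strand), was at 9.73, 13.6 and 10.3 TPM in WT ovaries, and tumors ran from 22.5 TPM in MP tumor 4 through 53.4 to 94.0 TPM in MP tumor 1. Every tumor was above every ovary, again as for 3.02% of all tested genes. The log2 fold change was 2.12 (SE 0.42, 95% interval 1.30 to 2.93, limma adjusted P = 0.00273), it was 2.14 (limma adjusted P = 0.00213) within the IGO number of the WT ovaries, and it passed the test in all 13 fits that left out 1 library. Tk1 shares 83 exon bases with Afmid on the other strand, and the strand setting of the counting is not given in the sources used here. The bases before Tyms (chr5:30073626-30073875, minus strand) and before Tk1 (chr11:117826093-117826264, minus strand), genes for the alternative routes to dTMP, are shown from RefSeq (GRCm38.p6), with capitals on the E-box CACGTG, the core bound by MYC with its partner MAX.
Tyms: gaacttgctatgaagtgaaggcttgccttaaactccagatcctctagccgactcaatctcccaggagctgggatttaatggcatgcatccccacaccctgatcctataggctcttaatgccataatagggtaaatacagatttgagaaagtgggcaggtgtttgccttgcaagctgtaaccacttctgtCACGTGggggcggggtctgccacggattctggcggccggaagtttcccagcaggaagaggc
Tk1: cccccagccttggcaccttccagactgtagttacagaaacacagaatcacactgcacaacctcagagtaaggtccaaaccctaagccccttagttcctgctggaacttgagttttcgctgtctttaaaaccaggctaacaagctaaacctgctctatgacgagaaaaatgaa
The Tyms window held CACGTG 61 bases before the start, a sequence found in 7.15% of all windows. The Tk1 window, around a start inside the gene, held none of the searched motifs. The Tk1 bases shown lie before the gene and do not reach that start. Windows of Cad, Umps, Ctps and Dut were also searched. Cad held TTGCCGC 36 bases after its start, and an alternative start of Ctps, inside the gene, had GCGCGAA 234 bases before it. Umps and Dut held none, the Dut window lying around a start inside the gene. No window was searched for Dhodh.

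**Figure D2:**
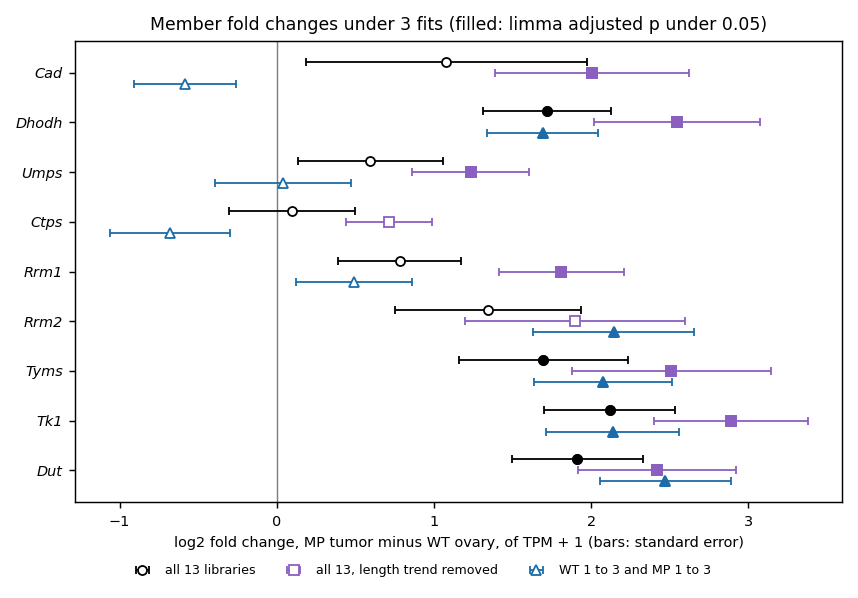
Log2 fold change (MP tumor minus WT ovary, on log2 of TPM + 1) of the 9 genes with standard errors, for all 13 libraries, for all 13 after removal of the length trend, and for WT ovaries 1 to 3 against MP tumors 1 to 3. Filled symbols passed limma's adjusted P of 0.05. Dhodh, Tyms, Tk1 and Dut are filled under all 3 fits, and Cad and Ctps lie below 0 in the last.

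Tk2, the mitochondrial counterpart of Tk1, moved the other way. It fell from 61.1, 59.9 and 63.8 TPM in WT ovaries to between 5.14 and 29.2 TPM in tumors (median 13.8). Every tumor was below every ovary, as for 16.4% of all tested genes. Its log2 fold change was -1.99 (SE 0.46, limma adjusted P = 0.00809), a call that was lost without WT ovary 1, 2 or 3. The Tk1 to Tk2 TPM ratio was 0.159, 0.227 and 0.162 in ovaries and ran in tumors from 0.770 in MP tumor 4 to 8.82 in MP tumor 2. All 10 tumors lay above all 3 ovaries, and the mean log2 ratio, again of TPM + 1, differed by 4.11 (2-sided exact permutation test, P = 0.0035, the smallest this design can give, and 0.0245 after adjustment over 7 ratios). It did not pass without WT ovary 1, 2 or 3, where 2 ovaries limit the exact permutation P to 0.0152 before adjustment. With a pseudocount of 0.1 in place of 1 the difference was 4.27.

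The other ratios set neighbors in the pathway against each other. Umps to Dhodh was lower in tumors by 1.13 on the log2 scale (difference -1.13, 2-sided exact permutation test, adjusted P = 0.0408), with 9 of 10 tumors below every ovary. It passed without MP tumor 2, 5, 9 or 10 and not in the other 9 fits without 1 library, at adjusted P values up to 0.106 (exact permutation test). Ctps to its paralog Ctps2 differed by 1.02 (exact permutation test, adjusted P = 0.0783), with Ctps2 at 72.1 ± 7.58 TPM (SD, n = 3) in ovaries and 41.5 ± 19.04 TPM (SD, n = 10) in tumors (log2 fold change -0.92, limma adjusted P = 0.154). Tk1 to Cad, salvage against ring synthesis, differed by 1.04 (exact permutation test, adjusted P = 0.334), and by 2.72 within the IGO number of the WT ovaries, where all 3 tumors were above every ovary and 0.1 is the smallest exact P.

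**Figure D3:**
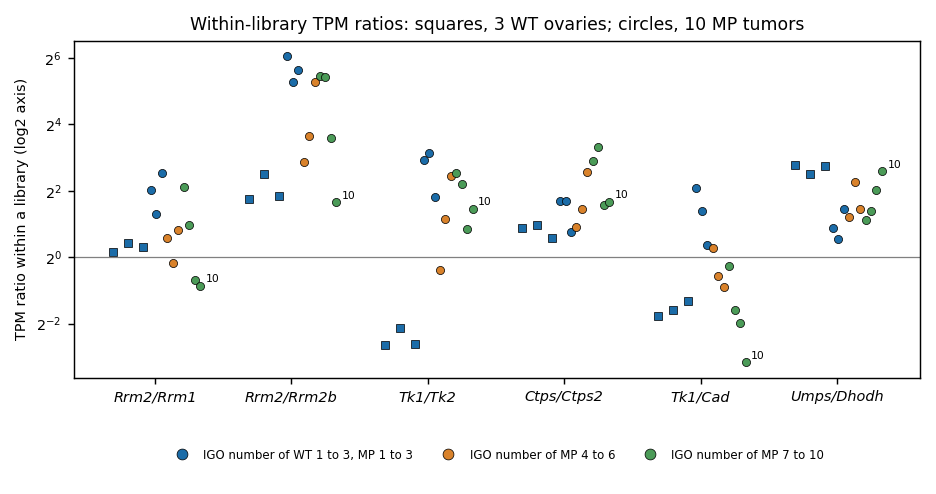
TPM ratios within each library on a log2 axis, with squares for 3 WT ovaries, circles for 10 MP tumors and color for the IGO number in the library name. The library labelled MP tumor 10 is numbered. The Tk1/Tk2 groups stand apart in every library, and for Rrm2/Rrm2b the numbered library alone lies below the WT ovaries, at 3.14.

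Across the tumors the 9 genes formed no single order. MP tumor 4 was lowest for Rrm1, Rrm2, Tyms, Tk1 and Dut, and MP tumor 2 was lowest for Cad, Umps and Ctps. The library labelled MP tumor 10 was highest for Cad, Umps, Ctps, Rrm1 and Tyms, while MP tumor 1 was highest for Rrm2, Tk1 and Dut. In MP tumors 5, 6, 7, 8 and 10 all 9 genes exceeded every ovary, and in MP tumor 4 only 3 did. The share of all tested genes above every ovary was not computed for single tumors, so these counts have no background beside them.

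Correlations over the 10 tumors, on log2(TPM + 1), describe this further. Of the 36 gene pairs, 32 had a positive Pearson r, with a median of 0.53, and 6 passed adjustment over the 36 (permutation test). The highest was between Rrm2 and Dut (r = 0.92, Spearman rho = 0.92, permutation P = 0.00684 after adjustment, and r = 0.94 without the 2 tumors farthest from the median of Rrm2). The other 5 were among Cad, Umps, Ctps and Rrm1, with r between 0.80 and 0.86 (adjusted permutation P between 0.0181 and 0.0322) and rho between 0.83 and 0.89 (adjusted permutation P between 0.0232 and 0.0302). Without the 2 farthest tumors, MP tumors 2 and 10, their r was between 0.68 and 0.75. Rrm1 and Rrm2, partners in 1 enzyme, gave r = 0.10 (permutation P = 0.779). Groups of 3 or 4 tumors per IGO number are too few for a correlation of their own. With values centred within each number, Cad and Ctps no longer passed (r = 0.52, adjusted permutation P = 0.171), while the other 5 pairs passed. In all, 14 pairs then passed and the median r was 0.67, with Rrm2 and Dut at 0.89 and Rrm1 and Rrm2 at 0.30. The counts of pairs and the median r were not computed for pairs drawn from all tested genes, so they have no background beside them. Whether they are particular to this gene set was not tested.

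**Figure D4:**
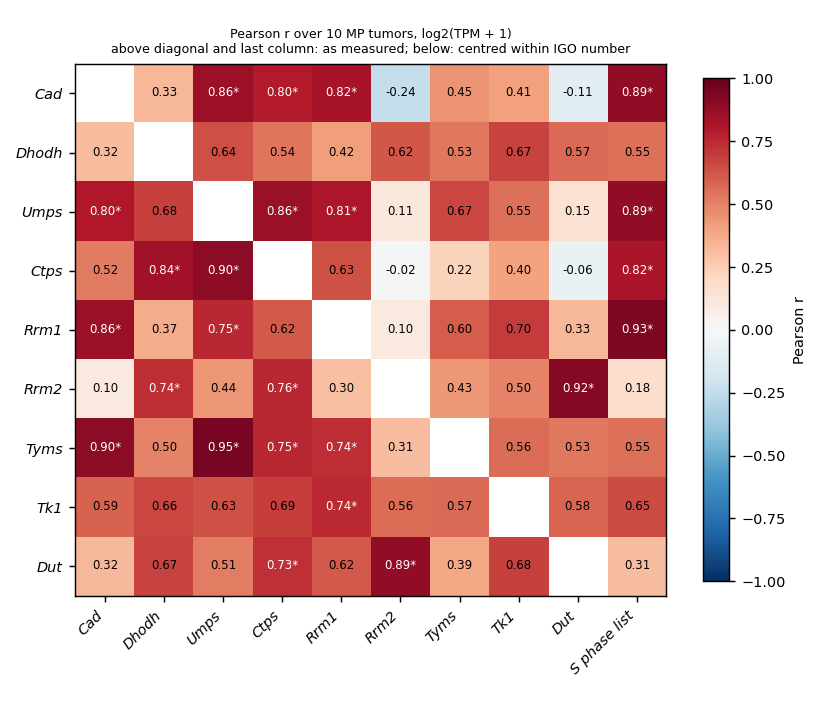
Pearson r over 10 MP tumors between the 9 genes, as measured above the diagonal and centred within IGO number below it, with the mean log2 level of 15 S phase genes in the last column (as measured). Asterisks mark an adjusted permutation P under 0.05. Cad, Umps, Ctps and Rrm1 form a dark block with the S phase column, and Rrm2 pairs with Dut at 0.92.

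Genes of DNA replication served as the level of S phase in each tumor, in a comparison chosen after seeing the data. Their list (Mcm2 to Mcm7, Pcna, Gins2 and others, 15 genes) had 4 higher and 0 lower genes, Mcm5, Gins2, Cdt1 and Rfc4, where 2.51% of all tested genes were higher and 14.3% lower, and a median log2 fold change of 1.31. The number higher was 1, 2 and 1 without WT ovaries 1, 2 and 3, and 7 without MP tumor 2. It was 15 with median-of-ratios scaling, 14 with quantile normalization and after removal of the length trend, and 12 with limma-voom on recovered reads. Its summed TPM was between 476 and 727 in ovaries and between 593 and 3324 in tumors, of which 8 were above every ovary. Over tumors its mean log2 level followed Rrm1 (r = 0.93), Cad (0.89), Umps (0.89) and Ctps (0.82), each with an adjusted permutation P of at most 0.00702. Their rho was between 0.84 and 0.95 (adjusted permutation P at most 0.00839), and r without the 2 farthest tumors was between 0.66 and 0.90. It gave r = 0.18 with Rrm2 (adjusted permutation P = 0.615) and 0.31 with Dut (adjusted permutation P = 0.444). Centred within IGO number, 7 of the 9 genes passed, all but Dhodh and Rrm2. The share of all tested genes that follow this list as closely was not computed, so the counts have no background beside them. In a list of 12 mitosis genes, 6 were higher and 0 lower, among them Aurka and Cdk1 (0, 1 and 0 higher without WT ovaries 1, 2 and 3, and 10 with median-of-ratios scaling or after removal of the length trend), while Mki67, the proliferation marker, had 52.6 ± 20.1 TPM in ovaries (SD, n = 3) and 92.3 ± 83.3 TPM in tumors (SD, n = 10), a log2 fold change of 0.30 that did not pass (limma adjusted P = 0.796).

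The wider nucleotide pathways are given list by list, by their counts beside the background of 2.51% higher and 14.3% lower, and several of the counts depended on the scaling. Among 14 tested genes of deoxynucleotide supply, 2 were higher and 2 lower. The number higher was 4 with median-of-ratios scaling and after removal of the length trend, 6 with quantile normalization and 7 with limma-voom on recovered reads. Without WT ovary 1, 2 or 3 it was 1 higher and 0 lower. Nme4, a mitochondrial nucleoside diphosphate kinase, rose from a mean of 26.6 TPM in ovaries to 195 TPM in tumors, where it ran from 49.6 to 517 TPM (log2 fold change 2.54, limma adjusted P = 0.00494), and Dtymk, which phosphorylates the dTMP made by Tyms and Tk1, rose from 94.3 to 262 TPM (log2 fold change 1.35, limma adjusted P = 0.0215). Tk2 and Cmpk2, both enzymes of mitochondrial deoxynucleotide supply, were the lower pair, and Cmpk2 averaged 14.7 TPM in ovaries and 3.60 TPM in tumors (log2 fold change -2.004, limma adjusted P = 0.0157). Nme3 was listed at 0 in every library.

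Around Tyms, 1 of 5 genes of the thymidylate folate cycle was higher and 0 were lower, and 3 were higher under each of the 3 other scalings. The number higher was 0 without WT ovary 1, 2 or 3 and 2 without MP tumor 2. That gene was Shmt1, which supplies the cycle with one-carbon units from serine, at 28.4 ± 4.87 TPM (SD, n = 3) in ovaries and 158 ± 107 TPM (SD, n = 10) in tumors (log2 fold change 2.16, limma adjusted P = 0.0137).

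Breakdown and pool cleaning held the largest single changes of these lists, with 1 of 12 tested genes higher and 1 lower. Dctpp1, which hydrolyzes dCTP and its modified forms, averaged 125 ± 11.7 TPM over ovaries (SD, n = 3) and 1227 ± 759 TPM over tumors (SD, n = 10), with every tumor at or above 475 TPM and every ovary at or below 137 TPM (log2 fold change 3.04, limma adjusted P = 0.000675). Such a separation upward was seen for 3.02% of all tested genes. Dpyd, the rate-limiting enzyme of uracil and thymine breakdown, fell from 13.1 ± 1.05 TPM (SD, n = 3) to a median of 0.173 and a maximum of 4.27 TPM in tumors (log2 fold change -3.23, limma adjusted P = 0.000245). On the log2 scale both differences are larger than that of any of the 9 genes. The breakdown count was 2 higher with 1 lower under quantile normalization, after removal of the length trend and with limma-voom, and 1 higher with 4 lower within the IGO number of the WT ovaries. In nucleoside salvage and uptake, 0 of 9 tested genes were higher and 1 was lower, Upp2, a uridine phosphorylase at 2.83 TPM in ovaries and 0.454 TPM in tumors (log2 fold change -1.42, limma adjusted P = 0.00160). The salvage count was 2 higher with 1 lower under median-of-ratios scaling, 3 with 1 under quantile normalization, 2 with 0 after removal of the length trend, and 0 with 3 within the IGO number of the WT ovaries. Uck2, which salvages uridine and cytidine, had 75.6 and 162 TPM (log2 fold change 0.83, limma adjusted P = 0.328). Purine synthesis and salvage had 4 of 15 genes higher and 0 lower, Prps1, Adsl, Impdh2 and Aprt, and Aprt, which salvages adenine, rose from 113 to 596 TPM (log2 fold change 2.31, limma adjusted P = 0.000176). The purine count was 8 higher with median-of-ratios scaling and 10 with quantile normalization or after removal of the length trend, each with 0 lower, and 5 higher with 4 lower within the IGO number of the WT ovaries. It was 1 higher without WT ovary 1 or 3.

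**Figure D5:**
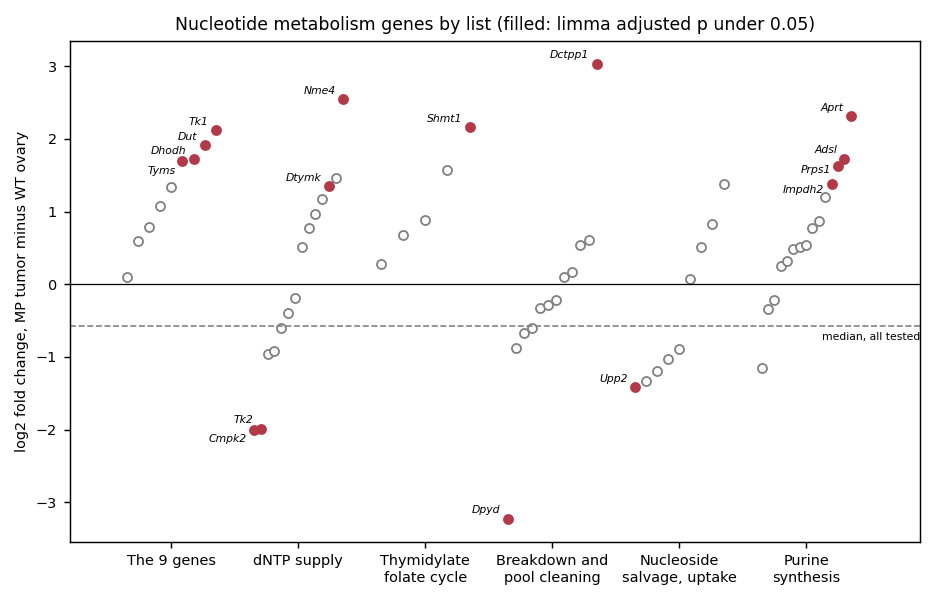
Log2 fold change (MP tumor minus WT ovary, log2 of TPM + 1) of each tested gene of the 9-gene set and 5 further nucleotide lists, ordered by value within a list, with filled points past limma's adjusted P of 0.05 and a dashed line at the median of all tested genes, -0.58. Dctpp1 at 3.04 and Dpyd at -3.23 are the extremes.

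Cell types of the ovary moved with the comparison, and their counts stand beside the 14.3% of all tested genes that were lower and the 2.51% that were higher. Summed TPM of 5 steroidogenic genes was between 25024 and 28130 in ovaries and between 7.44 and 824 in tumors, with 4 genes called lower, and the granulosa list went from between 3225 and 5990 to between 4.46 and 1507 TPM, with all 5 lower. The oocyte list went from between 248 and 368 to between 1.38 and 21.99 TPM, with all 5 lower. None of these 15 genes was at 0 in all tumors. Of 8 epithelial markers, Krt7, Epcam, Cdh1 and Muc16 were lower and Pax8 did not pass the filter, and the summed list went from between 223 and 248 TPM in ovaries to between 8.28 and 996 TPM, above every ovary in 3 tumors and below in 7. Leukocyte genes showed 0 calls in either direction among 5 tested, with sums of 972 to 3150 TPM in ovaries and 472 to 3664 TPM in tumors. The 3 endothelial genes had 1 lower, Kdr, with sums of 206 to 214 and 3.68 to 170 TPM, and the 4 fibroblast genes had 1 lower, Pdgfra, with sums of 730 to 1128 and 17.5 to 2458 TPM. The part of these cell types in the levels of the 9 genes was not tested.

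For each of the 9 genes, the most similar genes over the 10 tumors were ranked by Pearson r among 8828 genes with a mean of at least 10 TPM. Cad was most like Rfc1 and Psip1 (both r = 0.99), Dhodh like Eif2b3 (0.95) and Atg9b (0.93), Umps like Chaf1b and Skp2 (both 0.98), and Ctps like Actr5 (0.99) and Srp68 (0.98). Rrm1 was most like Nsl1 and Pold3 (both 0.96), and Rrm2 like Spc24 and Fabp5 (both 0.97). Tyms was most like Med28 (0.92) and Yars2 (0.91), Tk1 like Fignl1 (0.93) and Gm33312 (0.88), and Dut like Gins1 (0.98) and Lrr1 (0.97). These are the highest of 8828 values, over 10 libraries that also differ in depth and IGO number.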

How the data were processed

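Bulk poly(A)-selected RNA of 10 MP tumors and 3 WT ovaries was analysed. The authors deposited 1 table of TPM per gene and library. Per the submitters' processing notes the tools were FastQC 0.11.5, Trimmomatic 0.36, STAR 2.5.3a and featureCounts 1.6.3 on mm10, while the labels' protocol names a human build, HTSeq and RPKM. Of the table's genes, 96.0% carry the coordinates of GENCODE M21 (GRCm38), which was used here. Reads were recovered from TPM times length (tolerance 0.01), and 0 columns of other samples were present. TPM falls for a gene when others take a larger share.

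The 17277 genes reaching a TPM of 1 in 3 or more libraries entered the test on log2(TPM + 1), which understates changes of low genes, with limma 3.58.1 (trend, robust; R 4.3.3) over all 13 libraries without covariates, with a threshold of 0.05. Ratios (7, of which 1 is not reported here) were compared by exact permutation over all splits, and correlations with 100000 permutations (scipy 1.17.1). Checks used simulated data. The 9 genes, the lists and the tests were chosen with earlier results of these data known. Besides the 9 genes, named genes are the counterparts Rrm2b, Tk2 and Ctps2, the 2 with the largest moderated statistic among those called in each list, and the 2 most similar to each of the 9; other genes called in a list, Uck2, Mki67 and Nme3 were named after their values were seen. Alternatives varied the pseudocount, filter, scaling, length trend, IGO number, replicate block, limma options and single libraries. Promoter windows came from RefSeq. Libraries of a group differed beyond sampling noise (chi-square per degree of freedom at least 25.8 for WT ovaries and 46.1 for MP tumors). Depth was recovered rather than stated, and no counting intervals were computed.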

Additional observations from a re-analysis of the deposited data

Results flagged for a closer look

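Among 16 measures over the 10 MP tumors (the TPM of the 9 genes and 7 ratios), 2 had a value far from the rest by Dixon's test on the TPM scale for genes and the log2 scale for ratios, where chance gives about 1 in 20. Cad was at 662.671 TPM in the library labelled MP tumor 10, and the next tumor had 156.702 TPM. Umps was at 386.619 TPM in the same library, and the next had 191.653 TPM. Trp53 RNA of the library labelled MP tumor 10 was 187 TPM, against 4.30 to 26.0 TPM in MP tumors 1 to 9. Whether its Trp53 was edited was not tested. Without MP tumors 2 and 10 the log2 fold change was 0.92 for Cad (limma adjusted P = 0.335) and 0.57 for Umps (limma adjusted P = 0.149). On log2(TPM + 1), a scale added after seeing the data, the gap ratios were 0.40 for Cad and 0.33 for Umps, both under Dixon's critical value, so neither value stood apart there.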

How the results depend on the processing

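Tk1 passed limma's test in all 26 alternatives and Dhodh, Dut and Tyms kept their direction in all 26. Values below are log2 differences. Removing the length trend, which also takes out each library's general level, gave 2.00 for Cad, 1.23 for Umps and 1.81 for Rrm1, all called. With the trend removed, 7 members were called and 10.4% of all genes were higher. Removing it within the IGO number of the WT ovaries, added after seeing the data, gave 1.35 for Cad and for Umps, 0.59 for Ctps, 2.59 for Rrm1 and 3.25 for Rrm2, with 9 called, where 27.2% of all tested genes were called higher and 28.3% lower. Median-of-ratios scaling gave 1.31 for Umps and 1.49 for Rrm1, quantile normalization 1.34 for Rrm1, and limma-voom on recovered reads 1.15 for Rrm1 and 1.83 for Rrm2, all called. Within the IGO number of the WT ovaries, with the number as covariate and with the replicate block, Cad was -0.58 and Ctps -0.68, both reversed and not called, and Rrm2 was 2.14 and called. These settings give the same differences by design, since only WT ovaries 1 to 3 and MP tumors 1 to 3 enter them. They are not separate checks. Tyms missed the threshold with a pseudocount of 0.1 (1.74, limma adjusted P = 0.0501) and with no filter (1.69, limma adjusted P = 0.0590). Within that number the ratio differences were 3.41 for Rrm2/Rrm2b, 4.85 for Tk1/Tk2 and -1.66 for Umps/Dhodh, where 3 against 3 libraries cannot give an exact permutation P below 0.1. Centring raised the correlated pairs to 14 and the genes correlated with S phase to 7. The causes of these changes were not tested.

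Leaving out 1 library gave 1.65 to 1.82 for Dhodh, 1.501 to 1.87 for Tyms, 1.78 to 2.05 for Dut, 2.12 to 2.59 for Rrm2/Rrm2b, 3.98 to 4.34 for Tk1/Tk2, -1.25 to -1.02 for Umps/Dhodh, and 1 to 4 called members. It was 2, 2 and 1 without WT ovaries 1, 2 and 3, when all calls over the table also fell to between 65 and 107 higher and between 604 and 683 lower genes. Without a WT ovary the smallest permutation P is 0.0152. The replicate numbers do not pair animals. Deviations of same-numbered libraries correlated at -0.10, -0.02 and 0.0012, and the block gave 1087 higher and 9803 lower genes over the table. The no-filter fit gave 376 higher and 3631 lower genes, and voom 1876 and 4045. Depth limits MP tumor 5 most, where 1 read in a 1-kb gene was worth 0.790 TPM.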
